A study of Paxillus involutus with 12 samples.

Results

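The middle of a carbon-starvation course in Paxillus involutus was set against its beginning and its end. The 6 arrays of the middle harvests (3 of day 6 and 3 of day 8) were compared with the 6 arrays of the end harvests (3 of day 2 and 3 of day 13), which are all 12 arrays of the series, over all 12214 numbered sequences on the array. The measure was the mean of the day 6 and day 8 means minus the mean of the day 2 and day 13 means, in log2 units, and is called the contrast here. It picks out courses that bend, and among them the courses that go up and come down again or the reverse. The mycelium of strain ATCC 200175 was grown without a plant partner in dishes of glass beads, and the medium was a minimal one to which ammonium had been added until the C/N ratio was 3. Every culture had before this been grown up on fresh medium and kept off nitrogen for a day. All 4 groups share this history. They differ in the day of harvest and in their places on the chip. Each array held RNA from a separate pool of 2 cultures, measured in 1 colour on subarrays of a single chip. Carbon-supplied cultures of the same ages are not among the samples, so starvation and culture age cannot be told apart.

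Paxillus involutus is an ectomycorrhizal basidiomycete: its hyphae sheathe the fine roots of trees, pass nitrogen and phosphorus to the tree and receive sugars from it. A fungus cut off from sugar first draws on its stores and then on its own cell material. Autophagy, in which parts of the cytoplasm are enclosed in membranes and broken down in the vacuole, is the main route of that recycling, and its products can feed the growing tips while older hyphae empty. The contrast is large for levels that are high or low in the middle of such a course and not at its ends, and also for some that change once and stay. The sequences on this array carry numbers only, and 0 of the 12214 matched an entry among the 18033 genes of the reference table for assembly GCA_000827475.1, so no sequence is given a name or a role here and no gene list could be followed.

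The arrays had like medians, but the spread between replicate arrays differed by day. Replicate arrays within a day had correlations across sequences of 0.989 to 0.998, and array medians lay between 11.35 and 11.38. A control feature of random probes, which marks the background, read 4.49 to 4.61 on the middle arrays and 4.55 to 4.70 on the end arrays. The end days varied more between arrays than the middle days: the median SD over 3 arrays was 0.0790 at day 6 and 0.0771 at day 8, against 0.129 at day 2 and 0.139 at day 13. The labels of days 6 and 8 carry array numbers 4 to 9 in 2 orders that disagree, but the contrast weights both days alike and is the same whichever order is right. The middle days hold array numbers 4 to 9 and the end days 1 to 3 and 10 to 12, so position on the chip and the contrast cannot be told apart.

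The middle days differed from the end days in 6766 of 12214 sequences, 55.4% of those tested (limma, Benjamini-Hochberg adjusted p under 0.05, where the spread is that between arrays of a day). Of these, 3393 were higher in the middle days (27.8%) and 3373 were lower (27.6%). Most differences were small. The median absolute contrast over all sequences was 0.208 in log2 units, 1 in 10 exceeded 0.598 and 1 in 100 exceeded 1.18. A fold of at least 2 was reached by 146 higher sequences (1.20%) and 121 lower ones (0.991%), and a fold of at least 4 by 3 higher (0.0246%) and 6 lower (0.0491%). The smallest contrast that passed the test was 0.112 and the median standard error was 0.0706. The test asks whether these 4 harvests differ, given the spread between arrays of a day. It does not treat the days as a sample of days. With the day as a random block in limma, 0 sequences passed after adjustment. Of the 12214, 1018 then had an unadjusted p under 0.05, against 7373 in the test above. With the 4 day means as the samples in limma, 0 passed and 618 of the 12214 had an unadjusted p under 0.05. Where nothing differs, a share of 0.05 is expected below that limit. The count of 618 lies close to that share and the count of 1018 lies above it. With 0 sequences passing after adjustment, neither count is read as a signal.

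The bend was the lesser part of the course. With 4 days and equal numbers of arrays, the differences between days split into 3 independent pieces. The contrast held 28.8% of the between-day sum of squares over all sequences, the difference between day 13 and day 2 held 61.9%, and the difference between day 8 and day 6 held 9.20%. Per sequence the mean square was 0.424 for the contrast, where the residual mean square between arrays of a day was 0.0255. The contrast was the largest of the 3 pieces in 4209 sequences (34.5%), while day 13 against day 2 was the largest in 6682 (54.7%). A course that runs straight with time adds little to the contrast, since the middle harvests average day 7 and the end harvests day 7.5.

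A sequence that steps once and stays also has a contrast, so the middle days were set against each end on its own. The contrast is the average of these 2 differences. The middle days differed from day 2 in 7150 sequences (58.5%) and from day 13 in 7323 (60.0%), 2 comparisons that share the middle arrays. Among the sequences called in the contrast, the middle mean lay outside both end means in 4751 (70.2%) and between them in 2015 (29.8%). Over all 12214 sequences it lay outside both in 6214, and passing the contrast itself favours that position. The 2015 were made up of 1172 sequences whose middle mean was closer to day 2, so that most of the change followed the middle harvests, and 843 whose middle mean was closer to day 13, so that most of it preceded them.

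**Figure D1:**
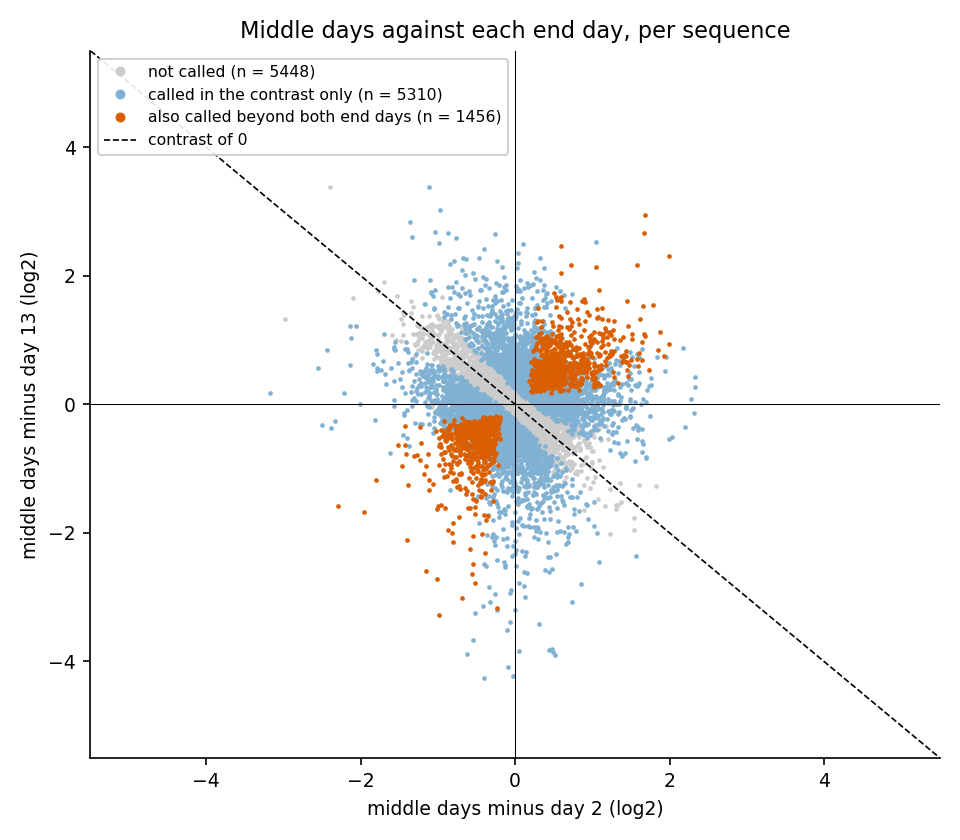
Each point is a sequence, placed by the middle days minus day 2 (horizontal axis, log2) and the middle days minus day 13 (vertical axis, log2); the dashed line marks a contrast of 0. Orange points passed the test on both sides (n = 1456), blue points passed the contrast only (n = 5310) and grey points neither (n = 5448), and the longest tail runs downward along the vertical axis, to sequences near day 2 in the middle days and far above it at day 13.

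The 2 directions of the large contrasts were built differently. Of the 146 sequences at least 2-fold higher in the middle days, the day 2 side was the larger in 73 and the day 13 side in 73, with median differences of 1.14 to day 2 and 1.16 to day 13. Of the 121 at least 2-fold lower in the middle days, the day 13 side was the larger in 99 (81.8%), with median differences of -0.43 to day 2 and -2.12 to day 13. These medians describe sets that the contrast itself chose, and no test was made between them. Over all 12214 sequences the day 13 side was the larger in 51.3%. The lowest contrast of all shows the form. paxillus_9608, singled out after its value was seen, read 8.70, 8.80 and 8.82 at day 6 and 8.72, 8.79 and 8.87 at day 8, against 8.84, 9.54 and 9.18 at day 2 and 12.75, 12.98 and 13.37 at day 13. The day 2 array at 8.84 lay within the range of the middle arrays, the other day 2 arrays lay above it, and the day 13 arrays lay far above. Of its contrast of -2.33 ± 0.12 (SE), the difference to day 2 was -0.40 ± 0.15 and that to day 13 was -4.25 ± 0.15. The difference to day 2 passed on its own (limma adjusted p = 0.0318). The sequence did not pass the test on both sides described next (limma adjusted p = 0.110).

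To isolate courses that turn, the middle days were required to lie beyond both end days in the same direction, with the larger of the 2 p-values taken for each sequence and adjusted over all of them. By this test 1456 sequences turned (11.9%). The middle days were higher than both end days in 770 (6.30%) and lower than both in 686 (5.62%). Which direction was the more frequent depended on the scaling, with 729 higher and 735 lower after each array was centred on its median. The smaller of the 2 differences had a median of 0.42 in log2 units over the 1456 and reached 2.00 upward and -1.67 downward. It was at least 2-fold in 40 sequences higher in the middle days (0.327%) and in 12 lower (0.0982%). Of the sequences at least 2-fold higher by the contrast, 93 of 146 passed this stricter test, and of those at least 2-fold lower, 52 of 121. By a criterion without a model, the 6 middle arrays lay all above or all below the 6 end arrays in 1441 sequences (11.8%), 779 of them above (6.38%) and 662 below (5.42%), and 1131 of the 1441 were also among the 1456.

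The sequences named for their turn are shown array by array. paxillus_1666, paxillus_10658, paxillus_11911 and paxillus_6437 were taken for the size of the contrast. Only called sequences whose 6 middle arrays lay all above or all below the 6 end arrays could be taken. The lack of overlap in these sequences was therefore required and is no result. paxillus_9608, with the lowest contrast of all, was passed over by this rule. paxillus_6810, paxillus_11146 and again paxillus_1666 and paxillus_6437 were taken for the smaller of the 2 differences. paxillus_1666 had the highest contrast of all sequences. It read 11.63, 11.51 and 11.88 at day 6 and 11.47, 11.73 and 11.03 at day 8, against 10.77, 9.36 and 9.43 at day 2 and 8.73, 8.32 and 8.75 at day 13. Every middle array lay above every end array, although 1 day 2 array came within 0.26 of the lowest middle array. Its contrast was 2.31 ± 0.22 (SE), 4.97-fold (limma adjusted p = 6.08e-06), from 3.22-fold over day 2 and 7.68-fold over day 13, so that it ended below its starting level.

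paxillus_6810 was the sequence whose middle days stood farthest above both ends. It read 9.07, 9.35 and 9.16 at day 6 and 9.25, 9.40 and 9.01 at day 8, against 7.74, 7.23 and 6.66 at day 2 and 6.87, 6.86 and 6.99 at day 13. The 6 middle arrays spanned less than 0.4 and the groups were far apart. Its middle days were 3.99-fold over day 2 and 4.93-fold over day 13 (test on both sides, limma adjusted p = 6.22e-05). Days 8 and 6 differed by 0.03 ± 0.21 (SE), and days 13 and 2 by -0.31 ± 0.21, neither past the threshold (limma adjusted p = 0.943 and 0.209).

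paxillus_10658 followed a course like that of paxillus_1666, at a lower level. It read 10.05, 9.85 and 10.15 at day 6 and 9.71, 9.91 and 8.91 at day 8, against 8.90, 7.89 and 7.47 at day 2 and 7.15, 6.91 and 7.24 at day 13. The highest day 2 array and the lowest day 8 array nearly met. Its contrast was 2.17 ± 0.22 (SE), 4.49-fold (limma adjusted p = 1.02e-05).

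Among the sequences lower in the middle days, paxillus_6437 read 10.27, 9.70 and 10.48 at day 6 and 9.61, 9.66 and 9.77 at day 8, against 12.19, 12.22 and 12.23 at day 2 and 11.48, 11.29 and 11.71 at day 13. The groups did not overlap, and the level at day 13 was short of that at day 2. Its contrast was -1.94 ± 0.11 (SE), 3.83-fold lower (limma adjusted p = 4.81e-07), with the middle days 4.92-fold below day 2 and 2.99-fold below day 13. Its difference between day 13 and day 2 was -0.72 ± 0.16 (limma adjusted p = 0.00175).

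paxillus_11911 dipped before a rise. It read 9.20, 9.39 and 9.24 at day 6 and 9.43, 9.40 and 9.71 at day 8, against 10.08, 10.82 and 10.24 at day 2 and 12.58, 12.65 and 12.79 at day 13. The middle arrays were the lowest of the course without overlap, and day 13 the highest. Its contrast was -2.13 ± 0.11 (SE), 4.38-fold lower (limma adjusted p = 2.56e-07), from 1.98-fold below day 2 and 9.70-fold below day 13.

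paxillus_11146 was back near its day 2 level on 2 of the 3 day 13 arrays. It read 8.58, 8.62 and 8.57 at day 6 and 8.68, 8.73 and 9.20 at day 8, against 10.59, 10.83 and 10.64 at day 2 and 9.45, 10.97 and 10.79 at day 13. The middle arrays stayed below all end arrays, the nearest pair being the day 8 array at 9.20 and the day 13 array at 9.45. The middle days were 3.88-fold below day 2 and 3.19-fold below day 13 (test on both sides, limma adjusted p = 0.00122).

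**Figure D2:**
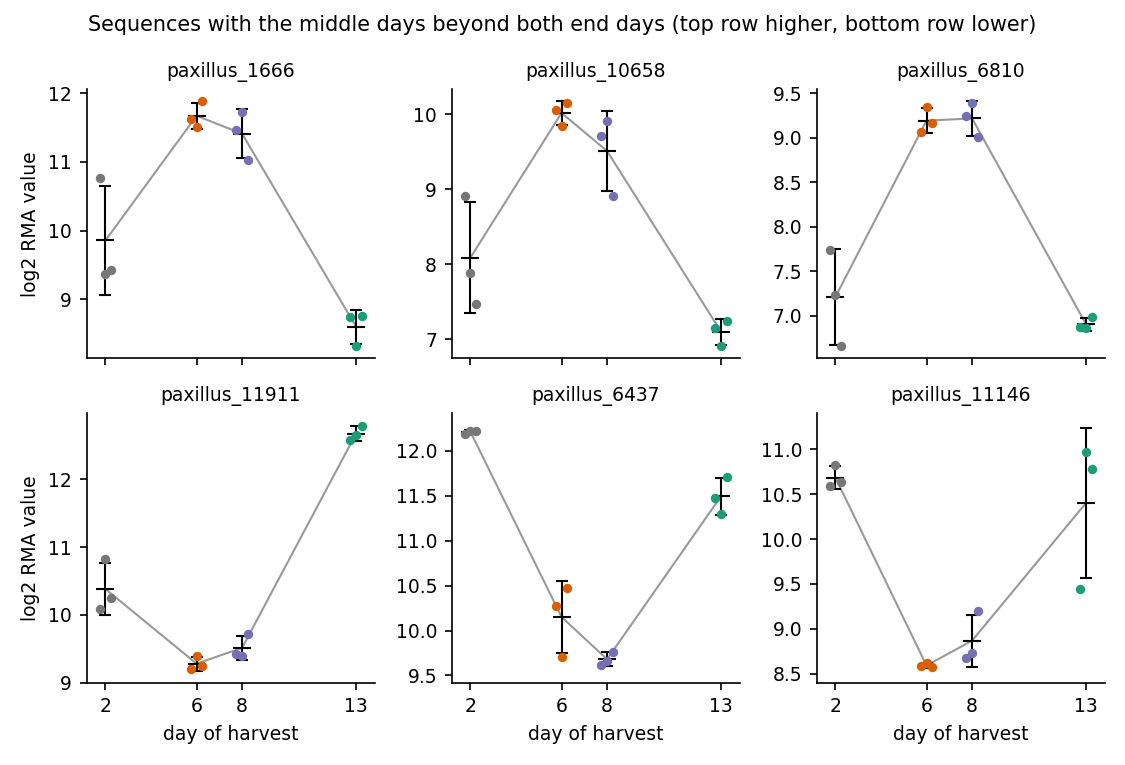
Log2 RMA value (vertical axis) by day of harvest (horizontal axis) for the 6 named sequences that turn; each dot is an array, and bars give the day mean and SD (n = 3). In the top row days 6 and 8 stand above days 2 and 13 and in the bottom row below them, with the widest spread at day 2 for paxillus_1666 and at day 13 for paxillus_11146. The vertical scale differs between panels.

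The sequences that turned more often had their extreme at day 8 than at day 6. Of the 770 higher in the middle days, 543 had their highest mean at day 8 and 227 at day 6, and day 8 was called above day 6 in 205 and below it in 36. Of the 686 lower in the middle days, 499 had their lowest mean at day 8 and 187 at day 6, and day 8 was called below day 6 in 178 and above it in 13. Over all sequences, day 8 was called above day 6 in 14.3% and below it in 11.6%. If the titles of days 6 and 8 were exchanged, these counts would change places. The end levels lay on either side of each other. Day 13 was above day 2 in 386 of the 770 and in 397 of the 686, and below it in the other 384 and 289. Among all sequences called in the contrast with the middle mean above both end means, day 13 was above day 2 in 1342 of 2490. With the middle mean below both it was in 1246 of 2261. The counts are not read as a trait of the sequences that turned.

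Seen array by array, the course was shared by the arrays of a day. Each sequence was centred on its own mean of the 4 day means, and the median over the 770 sequences higher in the middle days was 0.20 to 0.24 on the day 6 arrays and 0.33 to 0.37 on the day 8 arrays, against -0.31 to -0.20 on the day 2 arrays and -0.32 to -0.20 on the day 13 arrays. For the 686 lower in the middle days it was -0.22 to -0.18 on the day 6 arrays and -0.35 to -0.30 on the day 8 arrays, against 0.15 to 0.29 on the day 2 arrays and 0.20 to 0.32 on the day 13 arrays. The 3 arrays of each day stayed within 0.15 of each other in both sets. These sets were chosen for this difference, so the values describe them and test nothing.

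**Figure D3:**
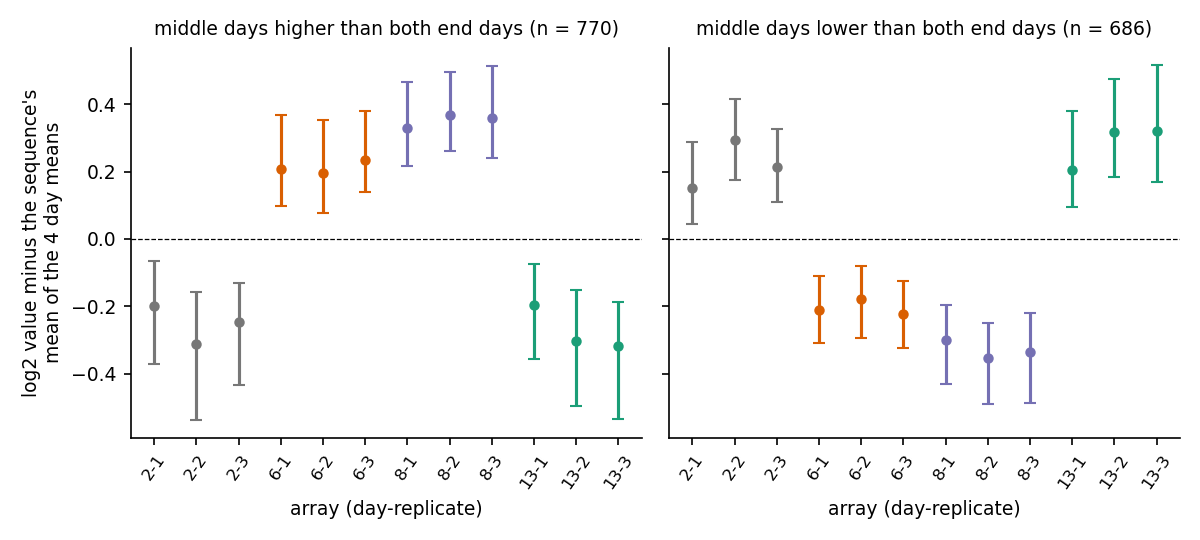
Median (dots) and quartiles (bars) over sequences of the centred log2 value on each of the 12 arrays, labelled by day and replicate, for the 770 sequences higher (left) and the 686 lower (right) in the middle days than on both end days. The day 8 arrays lie farther from 0 than the day 6 arrays in both panels.

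Each middle day taken alone gave a similar number of calls. Day 6 differed from the mean of the end days in 5616 sequences (46.0%), 2748 higher (22.5%) and 2868 lower (23.5%), and day 8 in 6352 (52.0%), 3290 higher (26.9%) and 3062 lower (25.1%), with the end arrays common to both. A still stricter test asked that each middle day lie beyond each end day, 4 differences in all. It was passed by 425 sequences (3.48%), 209 higher (1.71%) and 216 lower (1.77%). This count rests on single arrays more than the others do: it was 247 and 250 without day 2 array 2 and 3, 175, 225 and 171 without day 6 array 1, 2 and 3, and 253, 208 and 261 without day 8 array 1, 2 and 3. All 6 sequences described above passed it on all 12 arrays. They were chosen on these arrays for separated groups or for large differences from both ends. That choice makes passing likely, so it adds no support.

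In 139 sequences the middle days pulled in opposite directions, both called. Day 6 was above and day 8 below the end days in 53 (0.434%), and the reverse held in 86 (0.704%). The difference between days 8 and 6 was called in all 139, which their choice by opposite calls makes nearly certain, so it adds no support. In 0 of the 139 were both differences from the end days at least 2-fold. The contrast averages such days away. paxillus_1325 read 10.86, 11.68 and 11.03 at day 6 and 9.98, 9.59 and 9.54 at day 8, against 11.20, 11.36 and 11.12 at day 2 and 9.48, 9.78 and 9.58 at day 13. Its day 6 arrays overlapped those of day 2 and its day 8 arrays those of day 13, a step between days 6 and 8 (log2 difference -1.49 ± 0.18 (SE), limma adjusted p = 0.000439), and its contrast was 0.03 ± 0.13 (limma adjusted p = 0.867). paxillus_10815 made the opposite step, at 9.70, 9.78 and 9.71 at day 6 and 10.80, 10.82 and 11.10 at day 8, against 9.32, 9.69 and 9.70 at day 2 and 11.04, 11.08 and 11.11 at day 13. Of its day 8 arrays, 1 lay within the range of day 13.

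A further 8 sequences were named from those whose middle mean lay between the end means. With the middle mean closer to day 2, the larger part of the change came late. paxillus_4101 was called higher in the middle days by 1.20 ± 0.07 (SE; limma adjusted p = 4.82e-07) and fell late: it averaged 12.94 ± 0.06 at day 6 and 13.00 ± 0.13 at day 8, against 13.23 ± 0.10 at day 2 and 10.32 ± 0.19 at day 13 (SD, n = 3 each). paxillus_383 declined in stages, with 13.26 ± 0.22 at day 6 and 12.51 ± 0.15 at day 8, against 14.01 ± 0.11 at day 2 and 9.50 ± 0.43 at day 13, and most of its loss fell after day 8.

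The late rises gave contrasts below 0. paxillus_2376 read 10.26, 10.78 and 10.25 at day 6 and 10.45, 10.55 and 10.67 at day 8, against 10.09, 10.90 and 10.33 at day 2 and 14.34, 14.31 and 14.32 at day 13. Its middle arrays lay within the range of day 2, and the middle days differed from day 2 by 0.05 ± 0.16 (SE) and from day 13 by -3.83 ± 0.16. paxillus_4063 had the same form, with 10.56 ± 0.75 at day 6 and 9.89 ± 0.22 at day 8, against 9.78 ± 0.22 at day 2 and 14.06 ± 0.48 at day 13. Within 5 numbers of it stood 3 sequences that tracked it closely (r over 0.95 across the arrays and no array differing by 0.5 or more), so it is not counted as separate from them.

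With the middle mean closer to day 13, the larger part of the change came early. paxillus_1460 averaged 9.70 ± 0.12 at day 6 and 9.41 ± 0.01 at day 8, against 12.73 ± 0.45 at day 2 and 9.38 ± 0.07 at day 13 (SD, n = 3 each), with a contrast of -1.50 ± 0.12 (SE; limma adjusted p = 1.67e-06). The middle days stood 9.04-fold below day 2, while their difference from day 13 was 0.17 ± 0.14. paxillus_12040 fell in the same way, with 9.72 ± 0.20 at day 6 and 9.20 ± 0.09 at day 8, against 11.67 ± 0.25 at day 2 and 9.28 ± 0.21 at day 13. Among the early rises, paxillus_13167 averaged 10.14 ± 0.17 at day 6 and 10.88 ± 0.33 at day 8, against 8.19 ± 0.61 at day 2 and 10.64 ± 0.26 at day 13, and its difference between days 8 and 6, 0.74 ± 0.26 (SE), did not pass (limma adjusted p = 0.0515). paxillus_12524 averaged 8.76 ± 0.10 at day 6 and 10.13 ± 0.15 at day 8, against 7.24 ± 0.29 at day 2 and 9.81 ± 0.23 at day 13, and day 8 stood 1.37 ± 0.15 (SE) above day 6.

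**Figure D4:**
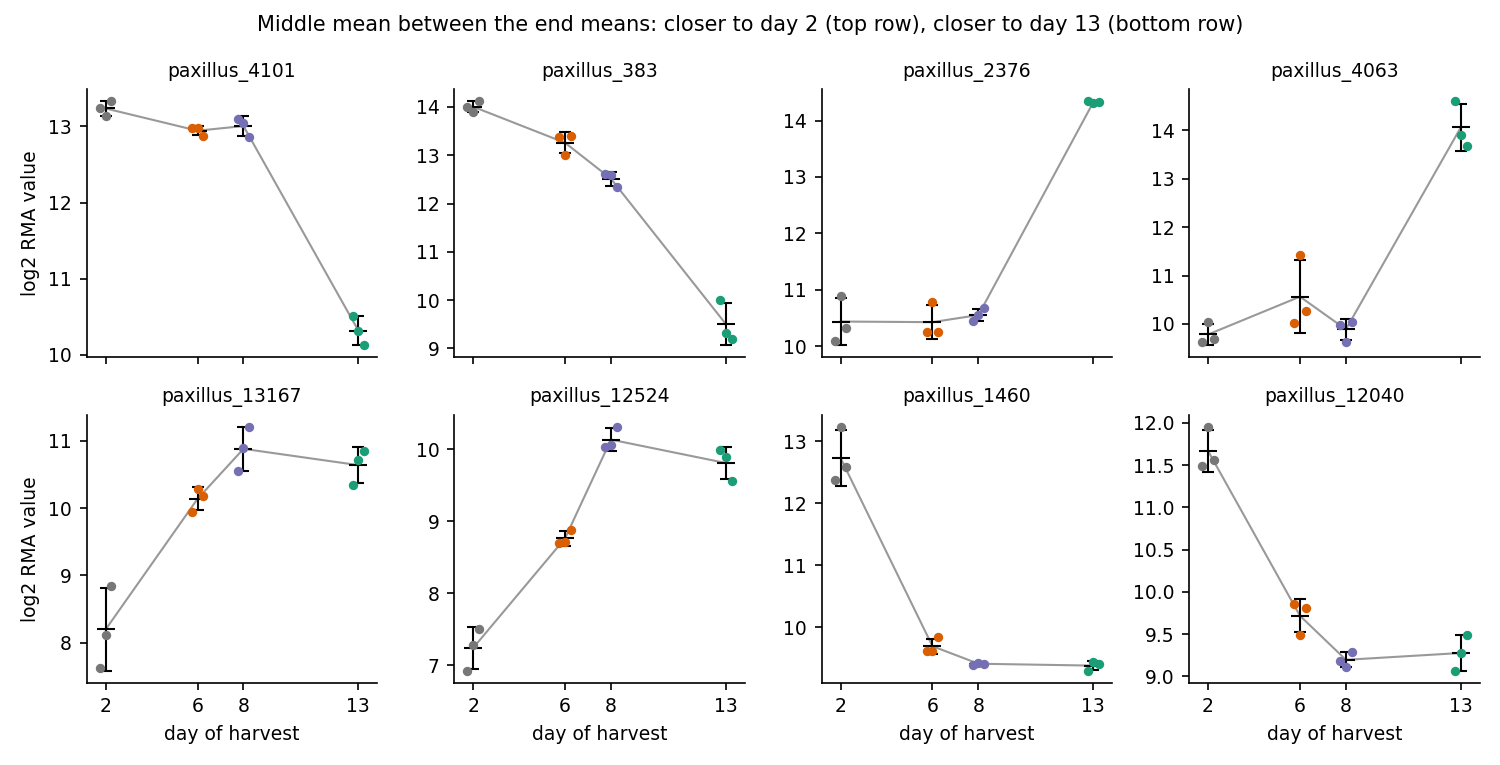
Log2 RMA value (vertical axis) by day of harvest (horizontal axis) for the 8 named sequences whose middle mean lies between the end means; dots are arrays, bars the day mean and SD (n = 3). In the top row the mean of days 6 and 8 lies closer to day 2, with paxillus_383 already lower at day 8, and in the bottom row it lies closer to day 13, with paxillus_12524 still rising between days 6 and 8. The vertical scale differs between panels.

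Direction differed between the dimmest and the brightest sequences. The sequences were divided into 5 equal groups by their mean level over all 12 arrays. The median standard error of the contrast fell from 0.0894 in the dimmest group to 0.0589 in the brightest, so smaller contrasts could be called at higher levels. In groups 2, 3 and 4 from the dimmest, 28.6%, 27.4% and 29.3% were called higher and 29.2%, 29.7% and 28.9% lower. In the dimmest group, at 3.10 to 9.80, 19.8% were called higher in the middle days and 25.7% lower. In the brightest, at 12.60 to 15.47, 33.9% were called higher and 24.6% lower. The order in these 2 groups was kept after quantile normalization, at 16.6% and 28.7% in the dimmest and 36.8% and 21.9% in the brightest. The median contrast was -0.03 in the dimmest group and 0.03 in the brightest, and the random control read 0.08 lower on the middle arrays (mean 4.54) than on the end arrays (4.62). The part of background and scaling in this was not tested. Among the sequences that turned, 8.35% of the brightest group were higher in the middle days and 6.10% lower, against 4.22% and 3.77% of the dimmest. Large contrasts were rarer among bright sequences: 13 were at least 2-fold higher and 7 lower in the brightest group, against 43 and 31 in the dimmest.

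**Figure D5:**
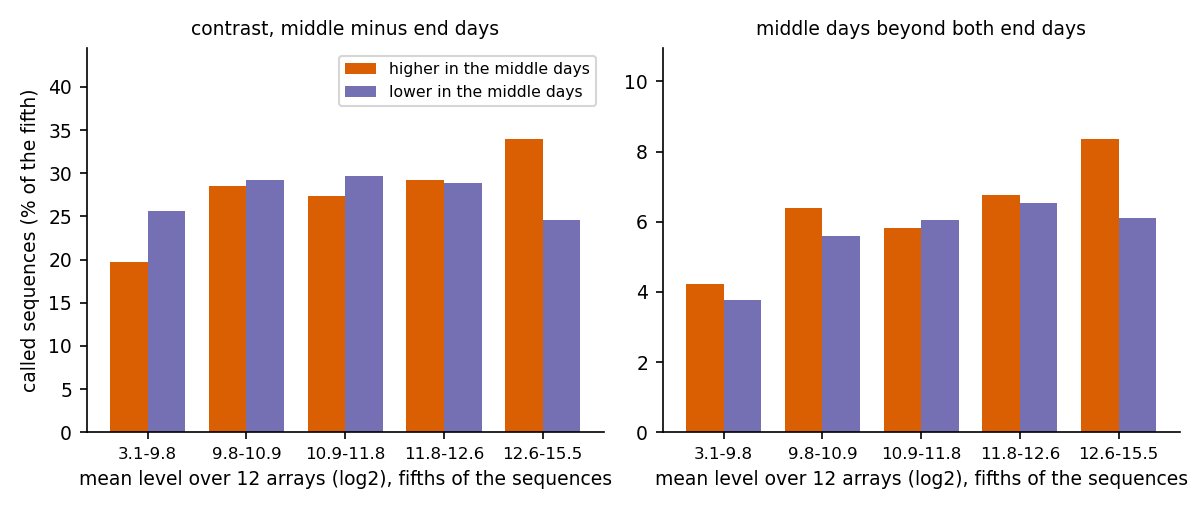
Share of sequences called higher (orange) or lower (purple) in the middle days, in % of each of 5 equal groups by mean level (horizontal axis, log2), for the contrast (left) and for the test against both end days (right). The share called higher is smallest in the dimmest group and largest in the brightest, at 19.8% and 33.9% on the left.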

How the data were processed

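Per the labels' protocols, RNA of 4 harvest days was hybridised to 12 subarrays of 1 NimbleGen chip. The deposited log2 expression values were made by the authors with RMA, per the submitters' processing notes, in its whole-array setting, per the file headers. The log2 scale was inferred from their range. RMA brings arrays to a common distribution, so changes are relative to the array as a whole. The random control was left out, and no filter was applied. The deposited series-wide table held the same values, with a largest difference of 0.

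Day means were fitted over 12 arrays in limma 3.58.1 (R 4.3.3), with 8 residual degrees of freedom and no replicate block, and adjusted over 12214 sequences. The fit was tested on simulated data. Of the 12214 sequences, 12203 rest on 10 probe pairs. Days and replicates come from titles. At most 2 sequences per direction were named: the largest separated contrasts, the largest differences from both ends, the largest contrasts among sequences whose middle mean lay between the ends, closer to day 2 or to day 13, and 1 each with opposite middle days, skipping any within 5 numbers of another. The comparison and lists were chosen with earlier results of these data known. The number of arrays limits the precision.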

Additional observations from a re-analysis of the deposited data

Results flagged for a closer look

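Among 34 groups of 6 arrays (the middle and the end arrays of each named sequence), 4 held an array that stood apart by Dixon's criterion. Chance flags about 1 in 20 groups of values from 1 distribution, a rate that does not apply here because each group pools arrays of 2 days. Day 8 array 3 was the lowest middle array of paxillus_10658, at 8.91 with the next at 9.71, and the highest middle array of paxillus_11146, at 9.20 with the next at 8.73. Day 13 array 1 was the lowest end array of paxillus_11146, at 9.45 with the next at 10.59. Day 6 array 2 was the highest middle array of paxillus_4063, at 11.42 with the next at 10.26.

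In 5 of the 17 named sequences the 2 middle days differed from each other (day 8 minus day 6, limma): paxillus_383 by -0.75 (adjusted p = 0.0113), paxillus_12524 by 1.37 (adjusted p = 0.000241), paxillus_12040 by -0.52 (adjusted p = 0.019), paxillus_1325 by -1.49 (adjusted p = 0.000439) and paxillus_10815 by 1.18 (adjusted p = 0.000138). The last 2 were picked for this. In 139 sequences days 6 and 8 were called on opposite sides of the end days.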

How the results depend on the processing

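The unit of replication changed the result most. With differences between days inside a set counted as spread (6 against 6 arrays) 2422 sequences passed, 1276 higher and 1146 lower, with 68 at least 2-fold lower. With the day as a random block or with 4 day means as samples 0 passed in limma, in either direction and at 2-fold. Of the 12214 sequences, 1018 and 618 had an unadjusted p under 0.05. A share of 0.05 is expected if nothing differs, and the first count lies above it. A minimum fold of 1.5 in the test, stricter by construction, left 246 (109 higher, 137 lower, 85 at least 2-fold higher), and 692 against day 2, 1309 against day 13, 181 for day 6 and 340 for day 8 against the end days. A threshold of 0.01 left 784 that turned (395 higher, 389 lower), 122 with each middle day beyond each end, and 3665 for day 6. Leaving out 1 array gave 6115 to 6941 for the contrast, 1131 to 1649 that turned and 171 to 543 for the 4 differences. The replicate block gave 6714 for the contrast and 1394 that turned. Arrays weighted by day gave 6715 and 1267, with 6835 against day 2 and 6914 against day 13. Replicate numbers did not pair the arrays: r of deviations was over 0.1 in 5 of 18 same-number pairs, and arrays matched their own number best in 12 of 36 cases. Of 144 counts and shares under other settings 117 lay within 1.5 times (shares within 3.46 points), as did 196 of 204 without 1 array. Of 467 values of named sequences 422 kept direction and call, 45 lost the call, all under the 3 day-level settings or the minimum fold, and 0 reversed; they were chosen for size. Alternatives for the single-end, single-day, position and share results were added after seeing the data.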
